A study of Mus musculus with 16 samples.

Results

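The genes described here encode the proteasome of mouse haematopoietic stem cells (HSCs). They were taken by symbol alone, as protein-coding genes whose name begins with Psm, a letter from a to g and a number, and 50 of the 46078 genes in the count table met that rule. They comprised 8 alpha and 11 beta genes of the 20S core, 6 ATPase (Psmc) and 14 non-ATPase (Psmd) genes of the 19S cap, and 10 genes for activators, an inhibitor and assembly chaperones. Psmd5, Psmd9 and Psmd10, counted among the non-ATPase genes by name, encode chaperones of cap assembly rather than subunits of the finished cap. The remaining gene, Psmc3ip, encodes the meiotic recombination factor HOP2 and matches the rule by name only. It is included in the counts, shares and medians given for all proteasome genes, but belongs to no role. The count table held RNA-seq libraries from pools of 30 HSCs each, sorted as lin-sca1+ckit+ (LSK) CD48-CD150+ cells from untreated C57/Bl6 mice. The cells came from the endosteal fraction (attached to bone) or the central marrow of leg and arm bones of wild-type (WT) and Gfra2-/- mice, whose age the labels do not give. Gfra2 encodes GFRα2, the receptor for neurturin, and its loss throughout the body depletes cholinergic nerve fibres, so the knockout is not restricted to HSCs. The comparisons ask whether HSCs differ between the compartments and whether the loss of Gfra2 alters them. There were 4 libraries each for WT endosteal, WT central and Gfra2-/- endosteal HSCs, and 3 for Gfra2-/- central HSCs, named A to D within each group, as names that pair no libraries across groups. The labels do not say whether the libraries came from separate mice. The study's figure legend gives 4 biological replicates, while its methods state that 3 replicates per condition were sequenced. The p-values therefore measure the spread between libraries, part of which may be technical.

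The proteasome degrades proteins that carry a ubiquitin chain. Its 20S core is a barrel of stacked rings, in which alpha subunits form the outer gate and beta subunits the inner chamber with the cutting sites. The 19S cap binds and unfolds the substrate: its ATPases form a ring on the barrel, and its non-ATPase subunits form the scaffold, receive ubiquitin and remove it. Under interferon, and constantly in many blood cells, the catalytic beta subunits are exchanged for PSMB8, PSMB9 and PSMB10, giving the immunoproteasome. HSCs make protein slowly and are sensitive to the accumulation of misfolded protein, and proteasome activity in these cells has been linked to their maintenance.

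Total reads on genes ranged from 4416648 to 14003634 in the WT endosteal, from 826487 to 3367289 in the WT central, from 8519094 to 18550008 in the Gfra2-/- endosteal and from 7649803 to 14716308 in the Gfra2-/- central libraries, so WT central HSCs were the least deeply sequenced group. The 8 HSC markers checked were detected in all 15 libraries, and Cd48, which the sort excludes, reached at most 17.4 CPM (read counts scaled to the same total in every library). Gfra2 had 0 to 4 counts in the WT libraries, 0 or 1 in the Gfra2-/- central libraries, and 2, 47, 1 and 9 counts in Gfra2-/- endosteal libraries A to D. The libraries labelled Gfra2-/- endosteal B and D thus had more Gfra2 counts than any WT library. These are raw counts from libraries of unequal depth, and the WT counts are themselves near 0, so they do not settle the genotype of a library. The main results resting on B and D are also given without them. Summed over 6 neutrophil markers, WT central D reached 3211 CPM, against at most 14.8 CPM in any other library, with Elane at or near 0 in every library. Summed over 5 B cell markers, Gfra2-/- endosteal D reached 1811 CPM, WT central D 387 CPM and Gfra2-/- central C 322 CPM, against at most 114 CPM in the others. For 4 megakaryocyte markers the sum was 580 CPM in Gfra2-/- endosteal A, which remains when B and D are left out. It was 433 CPM in WT endosteal A and 307 CPM in Gfra2-/- central B, against at most 231 CPM in the others. Over 6 erythroid markers, Gfra2-/- endosteal D had 667 CPM. Of the 3 endothelial markers, Cdh5 was at 0 throughout, while Pecam1 ranged from 17.7 to 97.2 CPM and Emcn from 11.3 to 300 CPM. Because these are bulk pools, fewer cells of a type and less RNA per cell cannot be told apart, and intervals or spreads here do not separate PCR copies from molecules, since the reads carry no molecular identifiers.

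Nearly the whole proteasome was expressed in HSCs. Of the 50 genes, 49 passed the filter on low counts in each comparison. The exception, Psmb11, which encodes the beta subunit particular to the thymus, had 3 counts in Gfra2-/- central B and none in the other 14 libraries. Psma8, the alpha subunit of testis, was low and uneven, between 0 and 64.8 CPM. To compare genes with each other, CPM was divided by the length of the principal transcript in kilobases and averaged over the 4 groups. Among alpha subunits this level was highest for Psma7, at 319 CPM per kilobase, and lowest for Psma8, at 11.4. Among beta subunits Psmb4 led with 237 CPM per kilobase. Among cap genes, the ATPases ran from 117 CPM per kilobase for Psmc3 to 37.1 for Psmc2, and the non-ATPase genes from 116 for Psmd7 to 20.3 for the assembly chaperone Psmd5. Psme1, which forms the interferon-inducible PA28 activator together with Psme2, had 234 CPM per kilobase, and Psme4, which encodes the large PA200 activator, had 11.8. Psme2b is an intronless, near-identical copy of Psme2. No library listed reads with a non-unique alignment, so reads that match both copies may be missing from both. The 102 CPM per kilobase of Psme2b and the 34.8 of Psme2 are therefore uncertain.

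**Figure D1:**
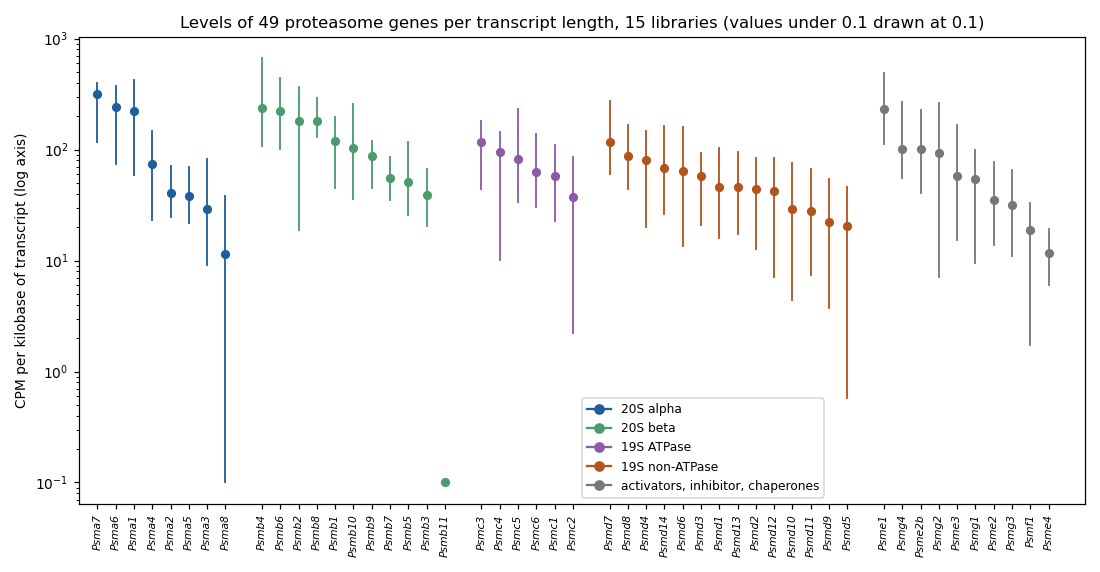
Points show the level of each proteasome gene in CPM per kilobase of principal transcript (log axis), as the mean of the 4 group means, and vertical lines run from the lowest to the highest of the 15 libraries. Psma7, Psma6 and Psmb4 stand at the top, Psmb11 is close to 0, and most genes span several fold between libraries.

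The catalytic subunits were present in both forms. Per kilobase, Psmb8 exceeded its constitutive counterpart Psmb5, the chymotrypsin-like site, in 15 of 15 libraries, with a median ratio of 3.20. Psmb10 exceeded Psmb7, the trypsin-like site, in 12 of 15 libraries, with a median ratio of 1.41. Psmb9 stayed under Psmb6, the caspase-like site, in every library, with a median ratio of 0.437. These orders depend in part on the length used: with the summed exon length of each gene, Psmb8 exceeded Psmb5 in 13 libraries and Psmb10 exceeded Psmb7 in all 15. The counting ignored strand, and Psmb8, Psmb9 and Psmb7 share 498, 212 and 405 exonic bases with Gm20496, Tap1 and Nek6 on the opposite strand. Psmb5 shares 109 exonic bases with Mir686 on the same strand. Reads that match both genes are set apart as ambiguous and counted for neither, so these levels may be too low. The pseudogene Psmb6-ps2 had 2512 counts in total, beside 23028 for Psmb6, and reads that match both may be missing from Psmb6. Too low a level of Psmb5, Psmb6 or Psmb7 would raise the ratio that divides by it.

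The ratio of Psmb8 to Psmb5 per kilobase was 1.82, 2.88, 2.61 and 1.64 in WT endosteal libraries A to D and 3.20, 6.75, 3.20 and 6.44 in Gfra2-/- endosteal libraries A to D. The values of 6.75 and 6.44 belong to libraries B and D, which had more Gfra2 counts than any WT library. Libraries A and C, at 3.20 each, stand beside a highest WT value of 2.88. The groups did not overlap with or without B and D, and the difference lay mainly in the denominator, since the edgeR log2 fold change between these groups was -0.21 for Psmb8 and -1.32 for Psmb5. In central HSCs the ratio was 3.16, 2.72, 7.64 and 2.72 in WT libraries and 5.61, 4.04 and 10.5 in Gfra2-/- libraries, which overlapped. The ratio of Psmb9 to Psmb6 was 0.161, 0.252 and 0.226 in WT central B, C and D, below every library of the other groups, the lowest of which had 0.342. WT central A, at 0.774, was the highest of all 15 libraries for that pair. For Psmb10 and Psmb7 the 4 groups overlapped.

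**Figure D2:**
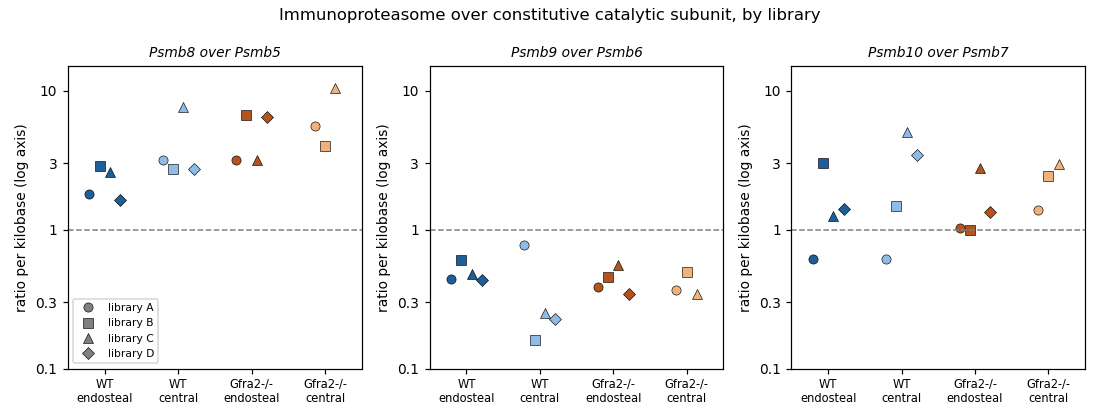
Each point is the ratio of an immunoproteasome gene to its constitutive counterpart in CPM per kilobase (log axis) in 1 library, with the marker giving the library letter and the dashed line a ratio of 1. Psmb8 lies above Psmb5 throughout, Psmb9 lies below Psmb6 throughout, and Psmb10 is above Psmb7 in 12 of 15 libraries.

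Proteasome genes varied less between libraries of a group than genes at large. The median standard deviation within groups, on the scale of log2(CPM + 1), was 0.58 for the 49 genes tested and 1.08 for all 15416 genes tested. Part of that gap follows from level. Among genes with a mean between 65.8 and 144 CPM, the middle of the proteasome range, the medians were 0.62 for 25 proteasome genes and 0.78 for all 2485 genes.

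Proteasome genes took a larger share of the reads in endosteal than in central HSCs of either genotype. In WT endosteal libraries A to D they held 0.700%, 0.655%, 0.636% and 0.661% of all gene reads, and in WT central libraries A to D 0.412%, 0.514%, 0.605% and 0.484%. In Gfra2-/- HSCs the shares were 0.613%, 0.669%, 0.582% and 0.590% in endosteal libraries A to D, and 0.531%, 0.547% and 0.578% in central libraries A to C. In neither genotype did the compartments overlap, although in Gfra2-/- HSCs the highest central value, 0.578%, was close to the lowest endosteal value, 0.582%. The compartment means ± SD were 0.663% ± 0.027 (n = 4) and 0.504% ± 0.080 (n = 4) in WT, and 0.613% ± 0.039 (n = 4) and 0.552% ± 0.024 (n = 3) in Gfra2-/- HSCs. WT central C, at 0.605%, is the shallowest library. Of the libraries with neutrophil or B cell markers, WT central D and Gfra2-/- endosteal D lay inside the range of their groups, whereas Gfra2-/- central C, with 322 CPM of B cell markers, held the highest share of its group. Without the libraries labelled Gfra2-/- endosteal B and D the remaining endosteal values of 0.613% and 0.582% were still above all 3 central ones. No test was made of this sum, because it is a score over chosen genes.

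Of the 5 roles, only the non-ATPase genes separated the compartments in both genotypes. They held 0.182%, 0.161%, 0.175% and 0.144% of gene reads in WT endosteal libraries and 0.109%, 0.101%, 0.115% and 0.117% in WT central libraries. In Gfra2-/- HSCs they held 0.191%, 0.175%, 0.171% and 0.183% in endosteal libraries and 0.153%, 0.115% and 0.121% in central ones. Again every endosteal library was above every central library of its genotype. The same held for the 11 genes other than Psmd5, Psmd9 and Psmd10, with at least 0.124% in WT endosteal and at most 0.112% in WT central libraries, and at least 0.144% and at most 0.130% in the Gfra2-/- compartments. The 6 ATPases did so in WT HSCs, with at least 0.0752% in endosteal and at most 0.0731% in central libraries, but overlapped in Gfra2-/- HSCs. The 20S beta genes had no such order, with 0.163% ± 0.016 and 0.146% ± 0.045 in WT endosteal and central HSCs and 0.143% ± 0.020 and 0.154% ± 0.030 in the Gfra2-/- compartments. Among 20S alpha genes, the WT means were 0.136% ± 0.016 and 0.095% ± 0.032 and the ranges overlapped.

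**Figure D3:**
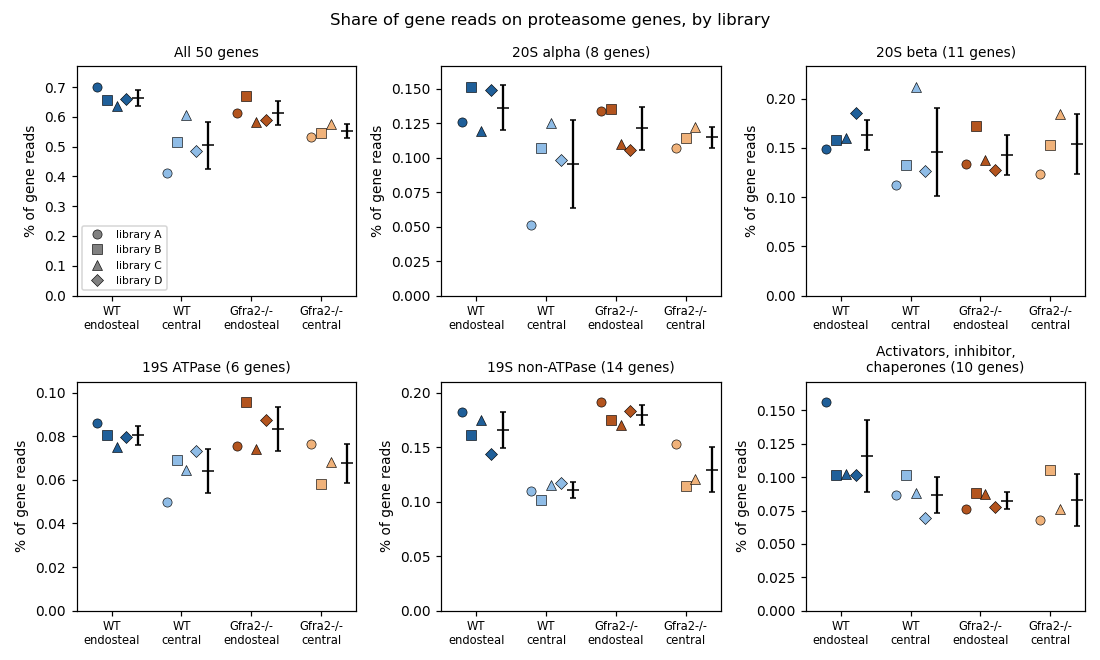
Points give the share of gene reads (%) on proteasome genes in each library, for all 50 genes and for each role, and black bars give the group mean ± SD. For all genes and for the 19S non-ATPase genes, every endosteal library lies above every central library of the same genotype.

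Gene by gene, no proteasome gene passed a false discovery rate (FDR) of 0.1 in edgeR's quasi-likelihood test between WT endosteal and central HSCs, where 0.0% of the 11181 genes tested passed. DESeq2, run as an alternative, called Psmd6 alone of the 49 proteasome genes, and 1.93% of all genes. At an unadjusted p under 0.05 in edgeR, 5 proteasome genes were higher in endosteal HSCs and 0 were lower, against 4.43% and 3.46% of all genes. The groups did not overlap for 5 proteasome genes, all 5 higher in endosteal HSCs, against 4.27% of all genes higher and 2.1% lower. The log2 fold change was above 0 for 32 of the 49 proteasome genes, beside 51.5% of all genes tested, and its median was 0.35 over proteasome genes and 0.03 over all genes. By role the median was 0.53 for 19S non-ATPase genes (11 of 14 above 0), 0.44 for 20S beta genes, 0.28 for 20S alpha genes, 0.19 for ATPases and 0.05 for activators, inhibitor and chaperones. The gap between the proteasome and the all-gene median, 0.32, shrank to 0.16 without WT central A and to 0.15 without WT central D, the library with neutrophil markers, whose part in the result was not tested further. With size factors from the spiked-in RNAs the all-gene median moved to 1.58 and the proteasome median to 1.90, which leaves the gap at 0.32.

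Psmd6, which encodes the non-ATPase subunit RPN7 of the lid that holds the deubiquitinase, showed the widest separation. The gene lies on the minus strand of chromosome 14 (14112174 to 14120984, GRCm38). Its level was 224, 152, 153 and 119.7 CPM in WT endosteal libraries A to D and 28.0, 27.9, 18.7 and 27.6 CPM in WT central libraries A to D. The lowest endosteal value was thus above 4 times the highest central value, and the log2 fold change was 2.64 ± 0.47 (SE), with an edgeR adjusted p of 0.142. These levels rested on 920, 2292, 1682 and 1466 reads in the endosteal and 31, 90, 14 and 82 reads in the central libraries. Over the alternatives tried, the log2 fold change lay between 2.32 and 3.75 and the adjusted p between 4.12e-05 and 0.675, under 0.1 in 4 of 19.

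Psmd2 encodes RPN1, the large scaffold subunit that docks ubiquitin carriers. It had 249.6, 136, 203 and 120.0 CPM in WT endosteal and 65.1, 37.8, 98.9 and 105 CPM in WT central libraries, which did not overlap. Its log2 fold change was 1.19 ± 0.46 (SE), with an edgeR adjusted p of 0.578. Psma1, an alpha subunit of the gate, had 510.3, 322, 301 and 235 CPM in endosteal and 71.4, 232, 222 and 134 CPM in central libraries, so that 1 central library came within 4 CPM of the lowest endosteal one. For Psmb2, a beta subunit without a cutting site, the endosteal levels of 106, 178, 316 and 115 CPM overlapped the central levels of 64.2, 130.0, 16.0 and 53.8 CPM. The 16.0 CPM in WT central C rested on 12 reads. The edgeR adjusted p was 0.584 for Psma1 and 0.594 for Psmb2.

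**Figure D4:**
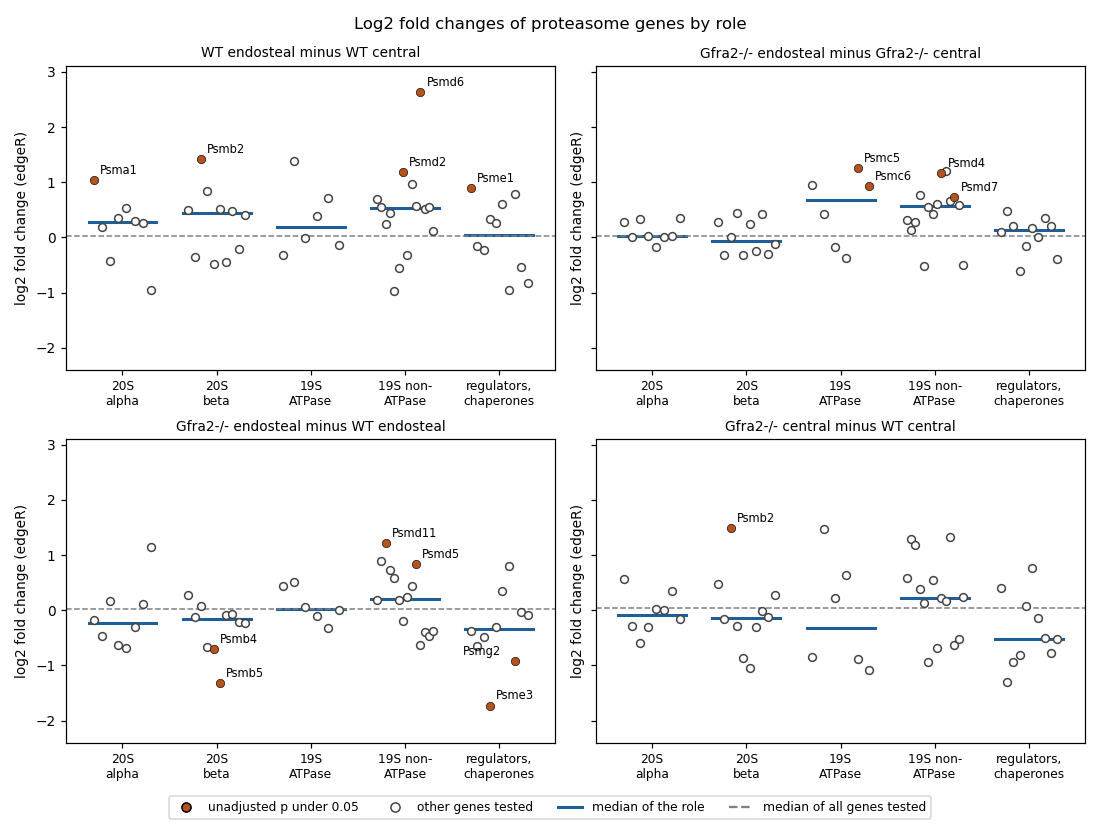
Each point is the log2 fold change of 1 proteasome gene in edgeR, grouped by role, in 4 comparisons, with filled points for an unadjusted p under 0.05, a blue bar for the median of the role and a dashed line for the median of all genes tested. In both endosteal against central panels the 19S non-ATPase median lies above the dashed line, at 0.53 in WT and 0.57 in Gfra2-/- HSCs.

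Between endosteal and central HSCs of Gfra2-/- mice, 0 of 49 proteasome genes passed the FDR of 0.1 in edgeR, as did 0.0% of the 13860 genes tested, while DESeq2 called 2 proteasome genes, Psmd4 and Psmc5, and 1.13% of all genes. At an unadjusted p under 0.05, 4 proteasome genes were higher in endosteal HSCs and 0 lower, against 2.74% and 2.05% of all genes. The groups did not overlap for 5 proteasome genes, again all higher in endosteal HSCs, against 3.68% of all genes higher and 3.67% lower. The log2 fold change exceeded 0 for 36 of 49 proteasome genes, beside 51.6% of all genes, with medians of 0.24 and 0.03. By role, the median was 0.68 for the 6 ATPases and 0.57 for the 14 non-ATPase genes, but 0.02 for the alpha and -0.06 for the beta genes of the core. Without the libraries labelled Gfra2-/- endosteal B and D, the medians were 0.13 over proteasome genes and -0.04 over all genes, and 1 proteasome gene was higher and 0 were lower with p under 0.05 before adjustment. The gap of 0.21 was 0.13 without endosteal D, the library with B cell and erythroid markers, and 0.083 without central A.

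Psmd4, the ubiquitin receptor RPN10, had 142, 159, 196 and 179 CPM in Gfra2-/- endosteal libraries A to D and 86.8, 57.2 and 80.8 CPM in central libraries A to C. All endosteal libraries were above all central ones, and the log2 fold change was 1.17 ± 0.29 (SE), with an edgeR adjusted p of 0.879 and a DESeq2 adjusted p of 0.0247. In WT HSCs the same gene had 119, 99.2, 116 and 165 CPM in endosteal and 136, 41.6, 26.7 and 46.7 CPM in central libraries, overlapping through WT central A alone. Psmc5, the ATPase RPT6, had 109, 146, 97.8 and 150.3 CPM in Gfra2-/- endosteal and 44.6, 67.6 and 45.7 CPM in Gfra2-/- central libraries, again without overlap. The log2 fold change of Psmc5 was 1.25 ± 0.34 (SE), with an edgeR adjusted p of 0.896 and a DESeq2 adjusted p of 0.0521. Without the libraries labelled Gfra2-/- endosteal B and D, the log2 fold changes were 1.17 for Psmd4 and 0.97 for Psmc5.

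The ATPase RPT4, encoded by Psmc6, had 109.6, 136, 161 and 214 CPM in Gfra2-/- endosteal and 87.7, 89.2 and 67.2 CPM in central libraries. Psmd7, the partner of the deubiquitinase PSMD14 in the lid, had 153, 173, 163 and 278 CPM in endosteal and 102, 111 and 133 CPM in central libraries. Neither overlapped between compartments, and the edgeR adjusted p was 0.952 for Psmc6 and 0.999 for Psmd7. Their log2 fold changes were 0.93 and 0.73, and 0.73 and 0.45 without the libraries labelled Gfra2-/- endosteal B and D.

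The WT and Gfra2-/- compartment comparisons share no library, so their directions can be set side by side. Of the 49 genes tested, 26 had a log2 fold change above 0 in both (53.1%), Psmc3ip among them. A further 7 were below 0 in both (14.3%) and 16 differed in direction. Of the 11092 genes tested in both, 28.9% were above 0 in both and 25.8% below 0 in both. Among the 14 non-ATPase genes, 10 were above 0 in both, Psmd6, Psmd2, Psmd4 and Psmd7 among them, and 1 was below 0 in both. The 10 tested beta genes divided into 5 above 0 in both and 4 below 0 in both, the latter including the immunoproteasome genes Psmb8 and Psmb10. For the catalytic genes Psmb6, Psmb7, Psmb8, Psmb9 and Psmb10 the log2 fold change between compartments was within ±0.48 in either genotype, and for Psmb5 it was 0.52 in WT and 0.24 in Gfra2-/- HSCs.

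Comparing Gfra2-/- with WT endosteal HSCs, 0 of 49 proteasome genes passed the FDR of 0.1 in edgeR, as did 0.0% of the 12970 genes tested, and DESeq2 called 1 proteasome gene, Psme3, and 1.02% of all genes. At an unadjusted p under 0.05, 2 proteasome genes were higher and 4 lower in Gfra2-/- HSCs, against 3.18% and 3.52% of all genes. The groups did not overlap for 3 proteasome genes, all lower in Gfra2-/- HSCs (Psme3, Psmb5 and Psmb3), against 2.68% of all genes higher and 3.55% lower. The log2 fold change was above 0 for 21 of 49 proteasome genes, beside 51.5% of all genes, with medians of -0.09 and 0.03. The role medians were 0.21 for the non-ATPase genes, 0.03 for ATPases, -0.16 for beta genes, -0.23 for alpha genes and -0.34 for activators, inhibitor and chaperones. When the libraries labelled Gfra2-/- endosteal B and D were left out, 1 proteasome gene was higher and 2 were lower with p under 0.05 before adjustment, and the medians were -0.20 over proteasome genes and -0.06 over all genes. This comparison and that in central HSCs use the libraries of the compartment comparisons again, so the 4 are not independent of each other.

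Psme3 encodes PA28γ, a nuclear activator that opens the core without ATP or ubiquitin, and lies on the plus strand of chromosome 11 (101316213 to 101323537). It had 446, 149, 155 and 210.3 CPM in WT endosteal libraries A to D and 73.3, 40.4, 74.1 and 100.5 CPM in Gfra2-/- endosteal libraries A to D. Every Gfra2-/- library was below every WT one, with a log2 fold change of -1.73 ± 0.43 (SE), an edgeR adjusted p of 0.601 and a DESeq2 adjusted p of 0.0373. Without the libraries labelled Gfra2-/- endosteal B and D the log2 fold change was -1.70, and leaving out 1 library at a time gave values from -1.95 to -1.26. In central HSCs, Psme3 had 184, 227, 189.8 and 154 CPM in WT and 149, 74.6 and 106 CPM in Gfra2-/- libraries, also without overlap, and the log2 fold change was -0.80 ± 0.41 (SE), with an edgeR adjusted p of 0.615.

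Psmb5, the constitutive chymotrypsin-like subunit and the main target of bortezomib, lies on the minus strand of chromosome 14 (54614119 to 54618022). It had 106, 40.2, 67.6 and 90.9 CPM in WT endosteal and 36.4, 23.6, 38.2 and 23.0 CPM in Gfra2-/- endosteal libraries. The groups did not overlap, and the log2 fold change was -1.32 ± 0.47 (SE), with an edgeR adjusted p of 0.737. It was -1.03 without the libraries labelled Gfra2-/- endosteal B and D. Central levels were 66.9, 65.8, 25.4 and 51.1 CPM in WT and 23.1, 29.1 and 24.8 CPM in Gfra2-/- HSCs, where WT central C fell among the Gfra2-/- values. The microRNA gene Mir686 lies within Psmb5 and shares 109 exonic bases with it.

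The scaffold subunit gene Psmd11 (RPN6) had 21.1, 37.0, 73.4 and 78.5 CPM in WT endosteal and 109.7, 73.7, 115 and 190.2 CPM in Gfra2-/- endosteal libraries, overlapping through Gfra2-/- endosteal B. In central HSCs it had 25.3, 36.9, 62.8 and 49.7 CPM in WT and 108, 79.6 and 116 CPM in Gfra2-/- libraries, without overlap. The log2 fold change was 1.22 ± 0.49 (SE) in endosteal and 1.19 ± 0.58 (SE) in central HSCs, with edgeR adjusted p of 0.737 and 0.598. Psmg2, a chaperone of alpha ring assembly, had 279, 91.1, 149 and 113 CPM in WT endosteal and 83.7, 101, 76.3 and 71.0 CPM in Gfra2-/- endosteal libraries, and the groups overlapped. With the libraries labelled Gfra2-/- endosteal B and D left out, the log2 fold change in endosteal HSCs was 1.09 for Psmd11 and -0.98, from -0.92, for Psmg2.

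**Figure D5:**
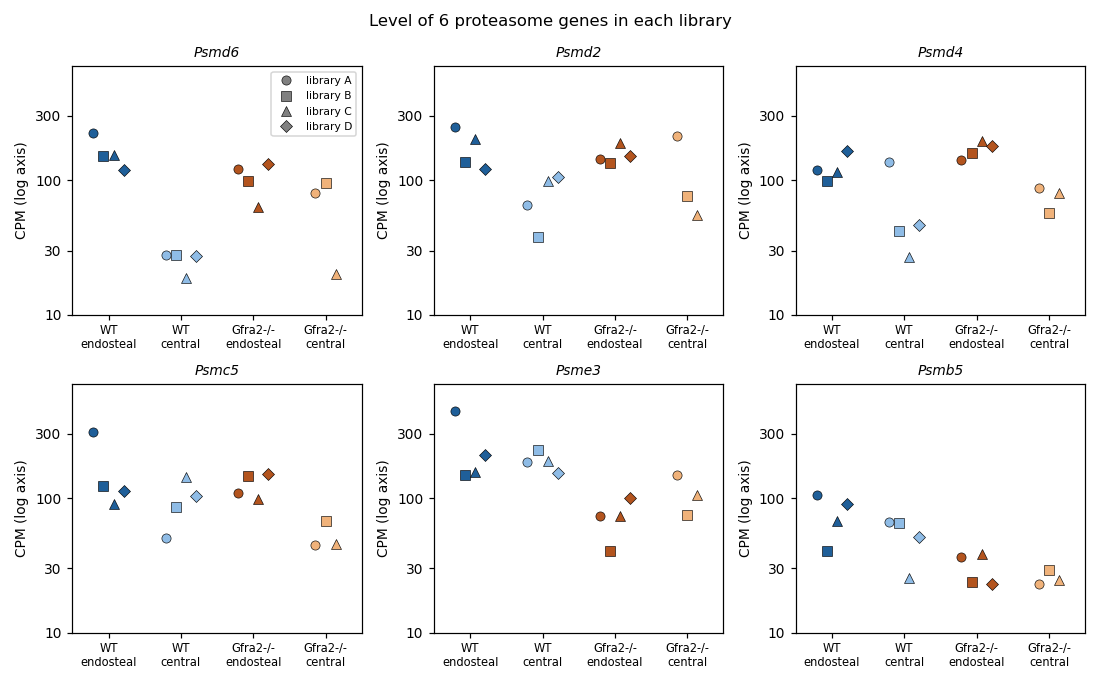
Each point is the level of a gene in 1 library in CPM (log axis), by group, with the marker giving the library letter. Psmd6 separates WT endosteal from WT central HSCs, Psmd4 and Psmc5 separate the Gfra2-/- compartments, and Psme3 and Psmb5 are lower in every Gfra2-/- endosteal library than in every WT endosteal library.

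In central HSCs, 0 of 49 proteasome genes passed the FDR of 0.1 in edgeR between Gfra2-/- and WT mice, beside 0.051% of the 11772 genes tested, and DESeq2 called 0 proteasome genes and 3.15% of all genes. At an unadjusted p under 0.05, only Psmb2 was higher and 0 genes were lower, against 4.6% and 4.14% of all genes. The groups did not overlap for 3 genes higher (Psmb2, Psmd10 and Psmd11) and 1 lower (Psme3) in Gfra2-/- HSCs, against 7.98% and 4.45% of all genes. The log2 fold change was above 0 for 23 of 49 proteasome genes, beside 51.4% of all genes, with medians of -0.02 and 0.03. Psmb2 had 170.3, 143 and 253 CPM in Gfra2-/- central libraries, all above the 16.0 (12 reads, in WT central C) to 130.0 CPM of the WT central libraries. Its log2 fold change was 1.48 ± 0.61 (SE), with an edgeR adjusted p of 0.507. Psmb4, a beta subunit without a cutting site, had 224, 185 and 279 CPM in Gfra2-/- and 314, 328, 785 and 221 CPM in WT central libraries, the value of 785 CPM being that of the shallowest library. Its log2 fold change was -0.86, and that of Psmc6 was -1.08, with edgeR adjusted p of 0.613 and 0.582.

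The interaction asks whether the endosteal minus central difference is the same in Gfra2-/- as in WT HSCs. No proteasome gene passed the FDR of 0.1 in edgeR or in DESeq2, beside 0.0% and 1.12% of the 15416 genes tested, and 0 proteasome genes had an unadjusted p under 0.05 with a term above 0 and 1 with a term below 0, against 2.56% and 4.41% of all genes. The term was above 0 for 22 of 49 proteasome genes, beside 46.3% of all genes, and both medians were -0.12. The gene was Psmd6, whose level was 122, 98.8, 62.7 and 132 CPM in Gfra2-/- endosteal and 80.7, 95.7 and 20.1 CPM in Gfra2-/- central libraries. Gfra2-/- central A and B were above all 4 WT central libraries, while Gfra2-/- central C lay among them. The interaction term was -1.99 ± 0.66 (SE) on the log2 scale, with an edgeR adjusted p of 0.539, and the narrower compartment difference in Gfra2-/- HSCs, 0.66 ± 0.54 (SE), is therefore not shown to differ from that in WT. Without the libraries labelled Gfra2-/- endosteal B and D the term was -2.19, and the medians were -0.23 over proteasome genes and -0.27 over all genes. Psmb2 and Psmc1, the ATPase RPT2 that opens the gate, followed with terms of -1.42 and 1.25 and edgeR adjusted p of 0.713 and 0.719. Psmc1 had 135, 104, 103 and 118 CPM in Gfra2-/- endosteal, 101, 41.4 and 36.2 CPM in Gfra2-/- central, and between 58.3 and 175 CPM in the WT libraries.

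The proteasome also needs subunits, chaperones and carriers with other names, and 31 of 32 such genes listed were in the annotation and tested. None passed the FDR of 0.1 in edgeR in any comparison, beside at most 0.051% of all genes. DESeq2 called 3 between central genotypes (Tap1, Sem1 and Ubqln2), beside 3.15% of all genes, and 1 in the interaction (Irf1), beside 1.12%. It called 0 in the others, beside 1.93% of all genes between WT compartments, 1.13% between Gfra2-/- compartments and 1.02% between endosteal genotypes. At an unadjusted p under 0.05 in edgeR, 0 of the listed genes were higher and 3 lower in WT endosteal than central HSCs, against 4.43% and 3.46% of all genes. The counts were 1 and 0 between Gfra2-/- compartments (2.74% and 2.05% of all genes), 1 and 3 in Gfra2-/- against WT endosteal HSCs (3.18% and 3.52%) and 0 and 4 in Gfra2-/- against WT central HSCs (4.6% and 4.14%). Over the list, the median log2 fold change was -0.19 between WT compartments and -0.09 between Gfra2-/- compartments, against 0.35 and 0.24 for the Psm genes. Sem1, which encodes the small lid subunit DSS1, averaged 174 ± 41 (SD, n = 4) CPM in WT endosteal and 314 ± 107 (SD, n = 4) CPM in WT central HSCs, the reverse of the order of Psmd6, with an edgeR adjusted p of 0.584. Pomp, the chaperone that completes the core, averaged 258 ± 46 (SD, n = 4) CPM in WT endosteal and 149.7 ± 26 (SD, n = 4) CPM in Gfra2-/- endosteal HSCs. The Pomp groups did not overlap, and the edgeR adjusted p was 0.708.

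Among genes induced by interferon together with the immunoproteasome, the transcription factor Irf1 averaged 71.1 ± 50.1 (SD, n = 4) CPM in WT endosteal and 193 ± 72.2 (SD, n = 4) CPM in WT central HSCs. In Gfra2-/- HSCs it averaged 188 ± 74.2 (SD, n = 4) CPM in endosteal and 92.6 ± 31.2 (SD, n = 3) CPM in central libraries. Its interaction term was 2.46 ± 0.68 (SE) on the log2 scale, with an edgeR adjusted p of 0.523, whereas the terms of Psmb8, Psmb9 and Psmb10 were -0.12, -0.54 and 0.01. The peptide transporter gene Tap1 averaged 364 ± 75.9 (SD, n = 4) CPM in WT central and 167 ± 36.8 (SD, n = 3) CPM in Gfra2-/- central HSCs, which did not overlap, with an edgeR adjusted p of 0.334. The transcription factors of proteasome genes, Nfe2l1 and Nfe2l2, had log2 fold changes within ±0.39 in the 4 comparisons between groups.

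Proteasome genes are known to share a response to NFE2L1 through antioxidant response elements. Upstream sequences are shown for Psmd6 and Psme3, the genes with the smallest p between WT compartments and between endosteal genotypes, and for Psmb5 because it holds the letters of that element. They are the 250 bases before the RefSeq start (GRCm38.p6), written 5′ to 3′ on the gene's strand, with capitals for the motif letters searched on both strands.
Psmd6, chr14:14120946-14121195, minus strand: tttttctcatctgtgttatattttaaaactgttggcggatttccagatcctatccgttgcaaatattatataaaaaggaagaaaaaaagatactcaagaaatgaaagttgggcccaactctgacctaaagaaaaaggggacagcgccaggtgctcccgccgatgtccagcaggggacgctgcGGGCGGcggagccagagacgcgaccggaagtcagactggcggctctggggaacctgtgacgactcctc
Psme3, chr11:101315963-101316212, plus strand: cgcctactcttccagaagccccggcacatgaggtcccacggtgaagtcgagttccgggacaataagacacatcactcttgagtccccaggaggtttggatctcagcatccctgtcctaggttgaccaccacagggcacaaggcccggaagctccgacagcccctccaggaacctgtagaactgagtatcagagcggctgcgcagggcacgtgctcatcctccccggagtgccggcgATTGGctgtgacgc
Psmb5, chr14:54617996-54618245, minus strand: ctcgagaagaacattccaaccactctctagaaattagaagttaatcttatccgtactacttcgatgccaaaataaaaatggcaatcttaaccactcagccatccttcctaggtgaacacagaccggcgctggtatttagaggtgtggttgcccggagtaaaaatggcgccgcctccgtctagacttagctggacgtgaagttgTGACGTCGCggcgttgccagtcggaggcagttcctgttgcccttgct

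Psmb5 held the letters of an antioxidant response element, TGACNNNGC, which begin 47 bases before the start, whereas Psmd6 held a GC box, GGGCGG, beginning 68 bases before it, and Psme3 a CCAAT box on the opposite strand, 14 bases before it. RefSeq promoters were matched by symbol for 42 of the 50 genes, 45 promoters in all, and compared with all 32851 promoters of the same length. TGACNNNGC stood in 5 of the 45 (11.1%) and in 10.2% of all promoters. The GC box stood in 23 of the 45 (51.1%) and in 32.7% of all promoters, and CCAAT in 15 of the 45 (33.3%) and in 33.8%. The 5 genes with TGACNNNGC were Psmb5, Psmb6, Psmc6, Psmd9 and Psmd12.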

How the data were processed

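RNA from sorted HSC pools was amplified by the Smart-seq2 protocol and sequenced single-end over 50 bases. Per the labels and the study's methods, the authors aligned reads to mm10 with GSNAP and deposited raw counts per Ensembl gene made with HTSeq (0.5.3p3) without strand. Table columns were assigned to groups through the study's sample sheet, and 1 unassigned column was not used. Members and lists were chosen with earlier results of these data known. Symbols came from GENCODE M21. Counts of genes, without the 92 spike-in RNAs and 5 summary categories, were filtered with filterByExpr, scaled by TMM and tested with edgeR (4.0.16) in R (4.3.3), using the libraries of the groups compared, with Benjamini-Hochberg adjustment over all genes tested and an FDR of 0.1. DESeq2 (1.42.0) was an alternative. CPM used TMM-scaled totals over 15 libraries. Genes named in full were the 4 with the smallest p per comparison, the catalytic subunits, tissue-specific forms and the extremes of each role, while Psmb3 and Psmd10 were named after their values were seen. The depth per library, from 826487 to 18550008 reads on genes, limits low genes in WT central HSCs most.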

Additional observations from a re-analysis of the deposited data

Results flagged for a closer look

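Among the 27 proteasome genes named, 78 groups of 4 libraries were searched for a single library far from the other 3, by Dixon's test at the 95% level, which chance alone meets in about 1 group in 20. It was met 6 times. Psme1 had 541 CPM in WT endosteal A against 255 to 297 CPM in the other WT endosteal libraries, and 324 CPM in WT central B against 125 to 145 CPM in the other WT central libraries. Psmc5 also had its outlying value in WT endosteal A, at 307 CPM against 90.6 to 123 CPM. Psmd7 had 278 CPM in Gfra2-/- endosteal D against 153 to 173 CPM in the other Gfra2-/- endosteal libraries. Gfra2-/- endosteal D had more Gfra2 counts than any WT library and carries B cell markers. Psmb10 had 154 CPM in Gfra2-/- endosteal C against 99.3 to 102 CPM. Psmd6 had 18.7 CPM in WT central C, the shallowest library, against 27.6 to 28.0 CPM, so the outlying value is the farthest from the endosteal libraries.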

How the results depend on the processing

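The number of proteasome genes past the FDR of 0.1 was 0 in each comparison and stayed 0 whenever 1 library was left out. It was 1 between WT compartments under DESeq2, without a filter on low counts, with at least 10 counts in every library and with all 4 groups in one fit, each time Psmd6 (log2 fold changes 2.52, 2.72, 2.68 and 2.66). DESeq2 called 1.93% of all genes there. The share of all genes called in the other settings is not given here, so these counts cannot be set against it. DESeq2 gave 2 between Gfra2-/- compartments (Psmc5 at 1.25, Psmd4 at 1.16), beside 1.13% of all genes. It gave 1 between endosteal genotypes (Psme3 at -1.75), beside 1.02%. Spike-in size factors turned Psmb4 (1.59) and Psmc6 (1.19) between central genotypes and Psmc1 (-0.28) and Psmc6 (-1.06) in the interaction, with the all-gene medians at 1.75 and -2.18. The median over proteasome genes minus that over all genes, 0.32 between WT compartments, was 0.11 without a filter, 0.15 with libraries of more spike-in reads (without WT endosteal D, WT central D, Gfra2-/- endosteal D and Gfra2-/- central C, which had under 0.5% of counted reads on spike-ins) and 0.16 with libraries over 1500000 gene reads, an alternative chosen after seeing the data. It ranged from 0.15 to 0.33 with 1 library left out. Between Gfra2-/- compartments it was 0.095 after thinning to 826487 reads and ranged from 0.083 to 0.28. Between central genotypes it was -0.23 without a filter, 0.065 with at least 10 counts, 0.047 past the quality cut-offs, -0.26 with more spike-in reads and -0.15 with that split as a term, and ranged from -0.22 to 0.064. In the interaction it was -0.14 with spike-in size factors, -0.17 with at least 10 counts, -0.098 after thinning and 0.17 with more spike-in reads, and ranged from -0.091 to 0.17. Between endosteal genotypes it ranged from -0.17 to -0.057. The cause of these shifts was not tested. The quality cut-offs used were over 1500000 uniquely mapped reads and under 20% mitochondrial reads, and only WT central C failed them. The study's further cut-off on high coverage genes was not applied. No paired analysis was possible because no replicate number is attached to the table's columns. Depth limits WT central HSCs most, and values near 0 there are uncertain.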
